A study of Homo sapiens with 16 samples.

Results

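The genes described here are 8 genes of sterol and fatty acid synthesis and of its control, SREBF1, SREBF2, INSIG1, HMGCS1, SQLE, ACACA, FASN and SCD, out of 20007 protein-coding genes of GENCODE release 44. They were listed by name, and every H3K4me3 or H3K27me3 region within 3 kb of any of their annotated start sites was taken. This gave 10 of the 18734 H3K4me3 regions that were called in at least 2 libraries, and none of the 32643 H3K27me3 regions. The data are CUT&RUN peak lists from MCF-10A, an established nontransformed human breast epithelial line. CUT&RUN cuts and sequences the DNA beside an antibody-bound histone mark. Cells seeded in triplicate received 5 mM octanoic acid (OA), a medium-chain fatty acid, or PBS as vehicle for 24 hours, with 3 libraries per treatment for H3K4me3 and 3 per treatment for H3K27me3. There were also 2 libraries each for H3K4me3 and IgG from untreated cells, and no genetic change was made in any group.

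SREBF1 and SREBF2 encode the SREBP transcription factors, which are held in the endoplasmic reticulum and released to the nucleus when sterols run low. There they bind sterol regulatory elements, often beside NF-Y and SP1 sites, at the genes of cholesterol and fatty acid synthesis. INSIG1 encodes the protein that retains the SREBP complex when sterols are plentiful, and is itself an SREBP target. HMGCS1 and SQLE are enzymes of sterol synthesis, and ACACA, FASN and SCD make and desaturate long-chain fatty acids. H3K4me3 marks the start regions of active or poised genes, and H3K27me3 is the Polycomb mark of repressed genes.

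Read numbers were not analysed here. The lowest background shared by many narrow peaks, recovered from the peaks' fold and p, scales with depth if no control library entered the calling, and was 0.45 reads in vehicle replicate 3 against 0.63 to 0.85 in the other 5 H3K4me3 libraries. That library also had the shortest regions, with a median of 834 bp over the 11071 regions called in all 6 libraries, against 1080 to 1382 bp elsewhere. At the main regions of the 8 genes its peaks reached 12 to 53 reads, against 32 to 244 in the other 5 libraries. Of these 5, OA replicate 1 was the lowest, at 32 to 78 reads. Its median fold over the 11071 regions was 7.18, against 8.82 to 10.4 in the other H3K4me3 libraries. Each fit below was also made without vehicle replicate 3, and without each other library in turn. Epithelial markers carried H3K4me3 in 10 of 10 cases, of which 6 were called in all 6 libraries and KRT14 in 2 vehicle and no OA libraries, and 0 of 9 markers of leukocytes, endothelium, liver, muscle or glia did.

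RefSeq start windows, running from upstream of the start to a short way past it and 300 bases long, were found for 6 of the 8 genes, and 9 of 9 such windows read the same in hg38, the build named in the submitters' processing notes. FASN and SQLE had no entry. The windows below show where the SREBP-type motifs stand in genes with an H3K4me3 difference described below or the best known SREBP control. Capitals mark TCACNCCAC (sterol regulatory element core), CACGTG (E-box) and CCAAT (NF-Y), searched on both strands, so that ATTGG is CCAAT on the other strand. No marked match overlaps another.
SREBF2, chr22:41832855-41833154, plus strand: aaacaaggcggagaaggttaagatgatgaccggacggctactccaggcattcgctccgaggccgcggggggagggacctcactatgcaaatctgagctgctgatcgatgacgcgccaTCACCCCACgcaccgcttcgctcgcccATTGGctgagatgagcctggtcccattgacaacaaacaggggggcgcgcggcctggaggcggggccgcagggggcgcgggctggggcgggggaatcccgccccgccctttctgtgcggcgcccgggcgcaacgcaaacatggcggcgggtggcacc
INSIG1, chr7:155297628-155297927, plus strand: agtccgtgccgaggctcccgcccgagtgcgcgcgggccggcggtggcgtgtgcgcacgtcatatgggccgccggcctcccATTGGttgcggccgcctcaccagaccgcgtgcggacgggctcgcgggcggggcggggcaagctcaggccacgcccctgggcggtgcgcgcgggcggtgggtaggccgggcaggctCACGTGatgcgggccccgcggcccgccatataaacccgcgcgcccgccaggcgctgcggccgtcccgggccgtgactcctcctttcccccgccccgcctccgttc
HMGCS1, chr5:43313363-43313662, minus strand: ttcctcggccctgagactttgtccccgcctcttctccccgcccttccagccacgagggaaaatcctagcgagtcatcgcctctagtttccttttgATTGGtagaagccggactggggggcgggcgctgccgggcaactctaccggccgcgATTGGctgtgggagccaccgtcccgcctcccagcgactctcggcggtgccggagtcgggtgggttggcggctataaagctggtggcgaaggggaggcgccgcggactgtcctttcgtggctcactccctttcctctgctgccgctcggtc
SCD, chr10:100346983-100347282, plus strand: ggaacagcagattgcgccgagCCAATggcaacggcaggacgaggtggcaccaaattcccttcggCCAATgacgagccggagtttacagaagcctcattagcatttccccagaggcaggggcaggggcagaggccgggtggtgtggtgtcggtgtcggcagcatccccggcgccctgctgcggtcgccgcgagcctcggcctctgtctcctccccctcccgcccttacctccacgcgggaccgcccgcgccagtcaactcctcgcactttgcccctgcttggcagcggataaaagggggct
SREBF1 upstream start, chr17:17836937-17837236, minus strand: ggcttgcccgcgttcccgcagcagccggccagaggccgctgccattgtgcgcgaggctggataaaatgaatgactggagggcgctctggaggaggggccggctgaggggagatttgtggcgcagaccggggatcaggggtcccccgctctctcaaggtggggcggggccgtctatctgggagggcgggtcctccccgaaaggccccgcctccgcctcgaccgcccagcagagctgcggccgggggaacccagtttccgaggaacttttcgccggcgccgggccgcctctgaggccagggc
SREBF1 internal start, chr17:17823569-17823868, minus strand: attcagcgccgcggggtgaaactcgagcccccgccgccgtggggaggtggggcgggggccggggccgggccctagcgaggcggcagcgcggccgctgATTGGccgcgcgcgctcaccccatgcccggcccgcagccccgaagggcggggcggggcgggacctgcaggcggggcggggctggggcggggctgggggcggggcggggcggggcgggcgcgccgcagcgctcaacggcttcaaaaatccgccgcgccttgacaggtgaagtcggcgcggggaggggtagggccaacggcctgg
SREBF2 alone of the 6 genes held the sterol element core, TCACCCCAC 133 bases upstream of the start, with CCAAT 106 bases upstream on the other strand. This core stands in 1.13% of all 35116 RefSeq start windows, and core and CCAAT together in 0.347%. INSIG1 alone held CACGTG, 55 bases upstream, a motif in 7.26% of windows. CCAAT stood in at least 1 window of 5 of the 6 genes and in 34.6% of all windows, and GGGCGG, the SP1 site, in all 6 genes and in 45.0% of windows. The upstream SREBF1 window held none of the marked motifs, while the window at its internal start, which was read from hg38, held CCAAT 153 bases upstream and 10 GGGCGG matches. A letter match describes these windows and says nothing on binding.

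H3K4me3 was called at the start of each of the 8 genes in all 6 libraries. Of all regions, 59.1% were called in all 6 libraries. Each main region, the one nearest to the canonical start, contained that start. Over all protein-coding genes, 54.9% had a main region called in all 6 libraries. Both untreated H3K4me3 libraries had a peak in all 8 main regions as well, and neither IgG list had a peak within 3 kb of any start of these genes. ACACA had a further region in all 6 libraries at internal starts, and SREBF1 had a further region in vehicle replicates 1 and 2 and no OA library, where untreated replicate 2 also had a peak. The plot of covered length shows that the spread between replicates is wide and that vehicle replicate 3 is the lowest vehicle library in 9 of the 10 regions.

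**Figure D1:**
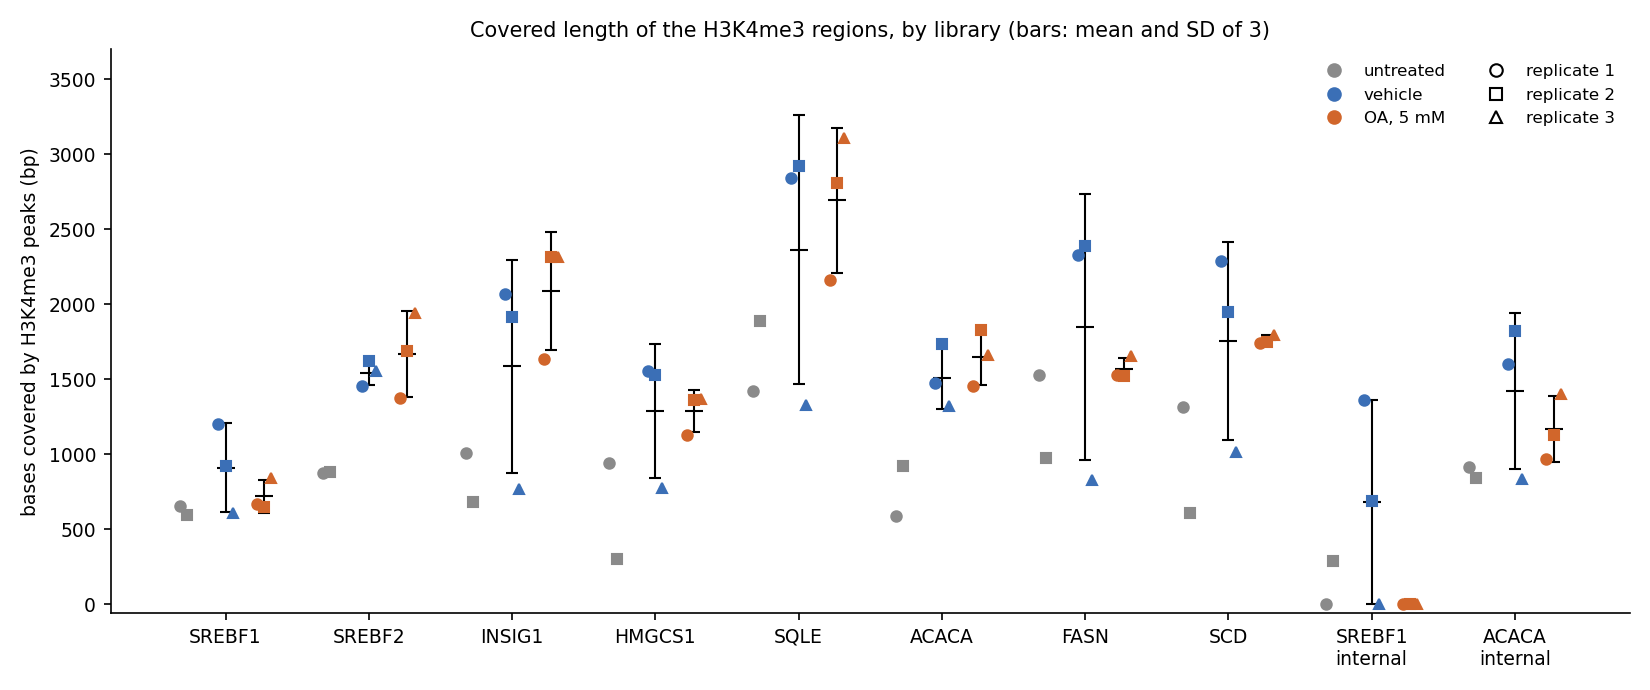
Bases covered by H3K4me3 peaks (bp, vertical axis) in each region of the 8 genes, with 1 point per library coloured by group and shaped by replicate, and bars for the mean and SD of the 3 vehicle and the 3 OA libraries. Vehicle and OA points overlap in all 10 regions, and the internal SREBF1 region is at 0 in all 3 OA libraries and in vehicle replicate 3.

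SREBF1 lies on the minus strand of chromosome 17. Its main region, chr17:17835841-17837247, covered the upstream start with 1199, 920 and 608 bp in vehicle replicates 1, 2 and 3 and 666, 645 and 844 bp in OA replicates 1, 2 and 3. The 2 highest values were vehicle libraries, but the lowest was vehicle replicate 3, so the groups overlapped. The mean was 909 ± 296 bp in vehicle and 718 ± 109 bp in OA (SD, n = 3). After each library was centred on its median, the log2 difference of OA minus vehicle was −0.46 (SE 0.17), with an adjusted p of 0.548 in limma over all 11071 regions. Ranked by length among those regions within each library, the region stood at the 41.8, 19.9 and 29.8 percentiles in vehicle and the 16.4, 6.99 and 10.3 percentiles in OA. These ranks did not overlap, and lower ranks in all OA libraries were found for 8.39% of all regions. No other member region separated on this rank, which is a description with no test. The fold enrichment of its strongest peak over local background was 9.20, 12.6 and 7.23 in vehicle against 8.36, 9.85 and 10.9 in OA, a centred log2 difference of 0.20 (SE 0.21, limma adjusted p = 0.853) that was −0.06 without vehicle replicate 3.

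SREBF1 is known to be transcribed from 2 promoters, an upstream one for the longer SREBP-1a form and an internal one for SREBP-1c, the form that insulin and LXR raise in lipogenic tissue. A second H3K4me3 region, chr17:17822248-17823611, lay 13375 bp inside the gene at 3 annotated internal starts. It was covered over 1362 bp in vehicle replicate 1, 688 bp in vehicle replicate 2, and 0 bp in vehicle replicate 3 and in all 3 OA libraries. Its peaks were modest, with a fold of 6.41 and 39 reads in vehicle replicate 1 and a fold of 5.80 and 16 reads in replicate 2, and their −log10 p stood at the 44.2 and 16.9 percentiles of their libraries. The difference between a mean of 683 ± 681 bp in vehicle (SD, n = 3) and 0 bp in OA is a description with no test, since the pattern of calls fixes it. Of all H3K4me3 regions, 1.99% were called in at least 2 vehicle libraries and no OA library. Of the 10982 genes whose main region was called in all 6 libraries, 0.674% had a further region of this kind. Without vehicle replicate 1 or 2 the region had a single call and no longer counted. Another region, chr17:17839900-17840089, held 190 bp of peak in OA replicate 2 alone.

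SREBF2, which encodes the SREBP that acts mainly on cholesterol synthesis, had a broader start region, chr22:41832531-41834641 on the plus strand. It was covered over 1457, 1622 and 1553 bp in vehicle and 1376, 1685 and 1944 bp in OA. The lowest and the highest values were both OA libraries. The centred log2 difference in length was −0.06 (SE 0.20, limma adjusted p = 0.932). Its fold was 9.07, 9.67 and 7.73 in vehicle against 6.07, 8.41 and 7.43 in OA, with a centred log2 difference of −0.11 (SE 0.17, limma adjusted p = 0.892). By length it ranked highest in vehicle replicate 3, at the 93.1 percentile of that library's regions.

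At INSIG1 every OA library had more peak bases upstream of the start than any vehicle library, as did 9.11% of the genes compared below. Its region, chr7:155297045-155299836 on the plus strand, also holds the start of the divergent transcript INSIG1-DT. Total coverage was 2070, 1918 and 767 bp in vehicle and 1637, 2317 and 2313 bp in OA, and the groups overlapped (centred log2 difference 0.35, SE 0.22, limma adjusted p = 0.716). Upstream of the canonical start, however, peaks covered 111, 49 and 23 bp in vehicle and 559, 430 and 833 bp in OA. All OA values lay above all vehicle values, with means of 61 ± 45.2 and 607 ± 206 bp (SD, n = 3). The farthest upstream peak edge stood 111, 49 and 23 bp from the start in vehicle and 803, 833 and 833 bp in OA. In both untreated libraries no peak base lay upstream of the start. In OA replicates 1 and 2 the upstream bases were mostly a separate peak, from −803 to −252 bp and from −833 to −427 bp relative to the start, and in OA replicate 3 a single peak ran across the start. The CACGTG shown above, 55 bases before the start, lay within a peak in vehicle replicate 1 and OA replicate 3 and outside every peak in the other 4 libraries and in both untreated ones. Bases and outermost peak edges on both sides of the start were measured in all 8 genes. These measures were added after the values had been seen, so no test is given. Of 10243 genes with the start inside a region called in all 6 libraries, 9.11% had more upstream bases in every OA library than in any vehicle library. INSIG1 was 1 of 8 here, and none of the other 7 separated on upstream bases. A farther upstream edge in every OA library was found for 10.8%. The reverse, fewer upstream bases in every OA library than in any vehicle library, was found for 2.27%.

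**Figure D2:**
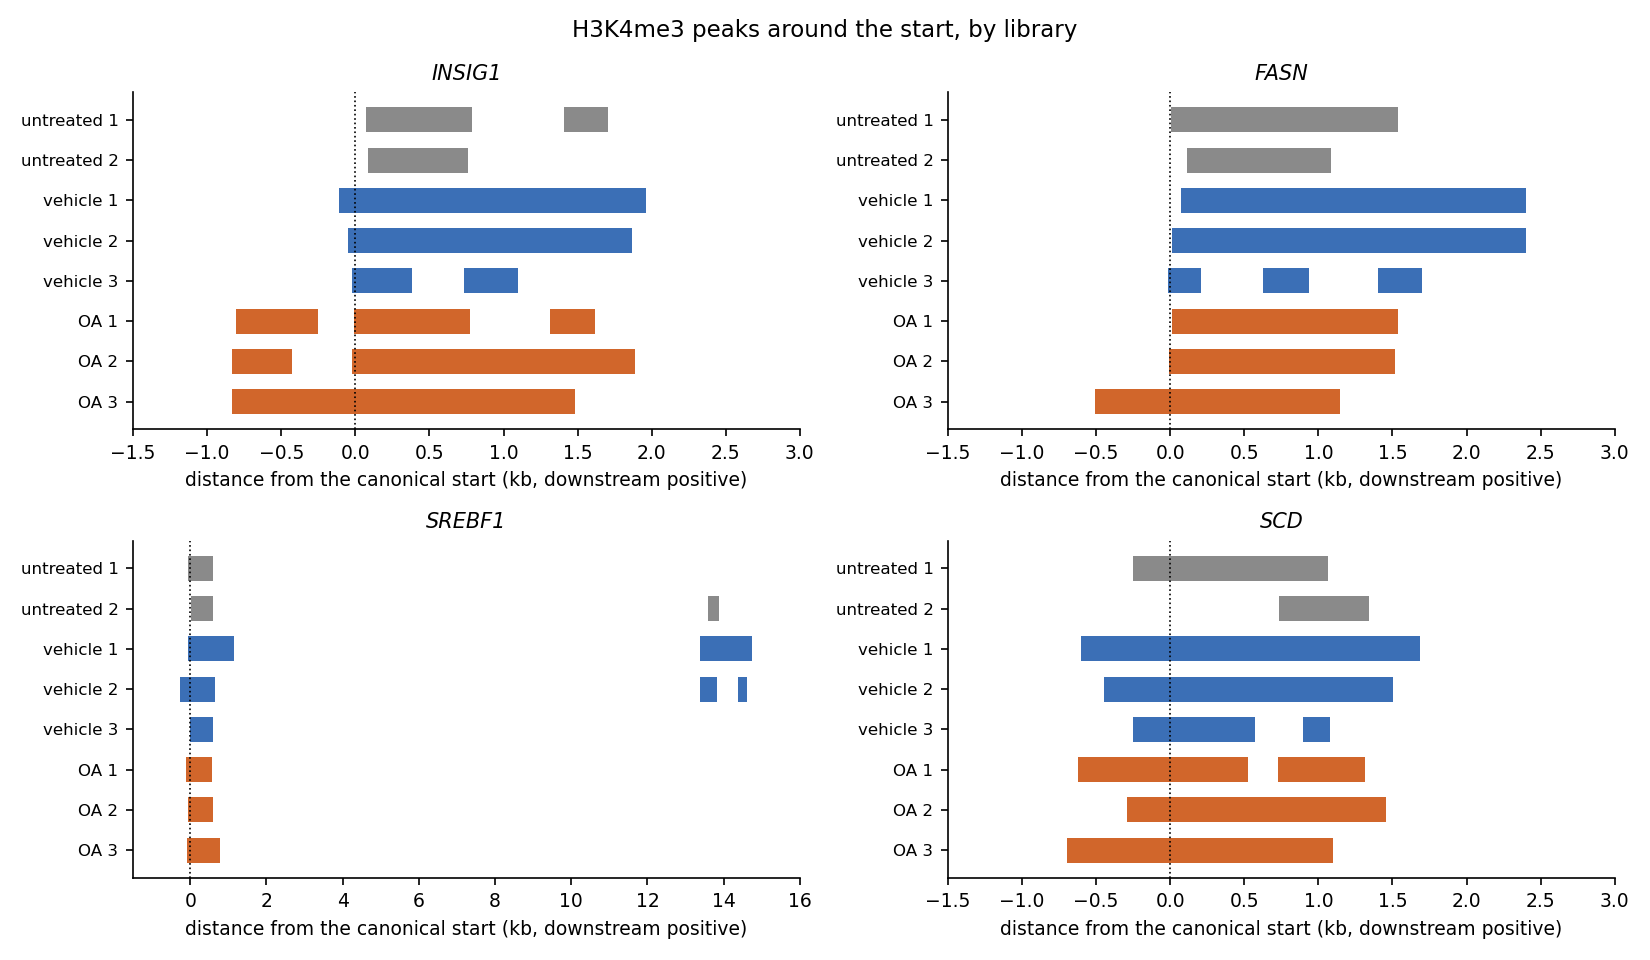
Each bar is an H3K4me3 peak of 1 library, drawn by its distance from the canonical start (kb, downstream positive, dotted line at the start) for INSIG1, FASN, SREBF1 and SCD. OA peaks reach about 0.8 kb upstream of INSIG1 and the outermost FASN peak edge lies nearer the start in OA than in vehicle, where replicate 3 has 3 short separate peaks, and the internal SREBF1 peaks are in vehicle replicates 1 and 2 and untreated replicate 2.

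INSIG1 fold enrichment was 5.70, 7.50 and 8.56 in vehicle against 5.57, 6.03 and 5.90 in OA. The 2 lowest values were OA replicate 1 and vehicle replicate 1, so the groups overlapped, and the centred log2 difference was −0.13 (SE 0.17, limma adjusted p = 0.879).

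HMGCS1 encodes the cytosolic enzyme that makes HMG-CoA, the substrate of HMG-CoA reductase. Its region, chr5:43311916-43313769 on the minus strand, was covered over 1558, 1530 and 774 bp in vehicle and 1127, 1364 and 1370 bp in OA. The group means were 1287 ± 445 and 1287 ± 139 bp (SD, n = 3), and the centred log2 difference was −0.10 (SE 0.15, limma adjusted p = 0.848). All 3 OA values lay below vehicle replicates 1 and 2 and above replicate 3. The fold ranged from 6.32 to 11.5 in vehicle and from 7.37 to 10.7 in OA (centred log2 difference 0.15, SE 0.20, limma adjusted p = 0.879).

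SQLE encodes squalene epoxidase, the first oxygen-requiring step of sterol synthesis. It carried the broadest H3K4me3 region of the 8 genes, chr8:124998118-125001366, which also holds the start of the divergent transcript SQLE-DT. It was covered over 2842, 2924 and 1328 bp in vehicle and 2162, 2808 and 3106 bp in OA, and its median rank by length over the 6 libraries was the 99.3 percentile of all regions. The groups overlapped, with a centred log2 difference of 0.10 (SE 0.17, limma adjusted p = 0.865). Its fold was the lowest of the 8 genes by the median over libraries, 4.05, 4.65 and 6.83 in vehicle against 4.27, 4.75 and 4.76 in OA (centred log2 difference 0.03, SE 0.19, limma adjusted p = 0.986). The strongest peak reached 174, 244 and 37 reads in vehicle and 78, 197 and 166 in OA. Its local background was 42.2, 51.6 and 4.57 reads in vehicle and 17.5, 40.7 and 34.1 in OA. The low fold is a ratio to this background and does not mean a low read count.

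ACACA encodes acetyl-CoA carboxylase 1, which makes the malonyl-CoA used for chain building. Its main region, chr17:37405826-37407650, is shared with the start of TADA2A, so the mark cannot be assigned to either gene. It was covered over 1477, 1733 and 1320 bp in vehicle and 1454, 1825 and 1659 bp in OA, with a centred log2 difference of −0.03 (SE 0.16, limma adjusted p = 0.951). The fold ranged from 8.21 to 14.0 in vehicle and from 7.56 to 9.91 in OA (centred log2 difference −0.06, SE 0.19, limma adjusted p = 0.959). The internal region, chr17:37357497-37359619, lay 47217 bp inside the gene at 4 annotated starts. It was covered over 1601, 1824 and 837 bp in vehicle and 965, 1131 and 1403 bp in OA. All 3 OA libraries lay below vehicle replicates 1 and 2, and vehicle replicate 3 lay below them all. The centred log2 difference was −0.38 (SE 0.16, limma adjusted p = 0.613), and −0.53 (SE 0.13, limma adjusted p = 0.285) without vehicle replicate 3. Regions in all 6 libraries at 2 or more places, as for ACACA, were found in 9.17% of genes with a main region in all 6.

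FASN encodes the multidomain synthase that builds palmitate. Its region, chr17:82095835-82098742 on the minus strand, was covered over 2331, 2391 and 827 bp in vehicle and 1525, 1522 and 1654 bp in OA. The 3 OA values were close together, below vehicle replicates 1 and 2 and above replicate 3. The centred log2 difference was −0.25 (SE 0.26, limma adjusted p = 0.785). It was −0.55 (SE 0.14, limma adjusted p = 0.276) without vehicle replicate 3, −0.11 without vehicle replicate 1 and −0.098 without vehicle replicate 2. The outermost downstream peak edge stood 2401, 2401 and 1695 bp from the start in vehicle and 1533, 1516 and 1147 bp in OA, nearer the start in every OA library. In vehicle replicate 3 this edge was the end of a separate peak, from 1401 to 1695 bp, and the other peaks of that library ended at 206 and 937 bp. The bases covered downstream of the start did not separate the groups, at 2331, 2391 and 813 bp in vehicle and 1525, 1517 and 1148 bp in OA. The mean outermost edge was 2166 ± 408 bp in vehicle and 1399 ± 218 bp in OA (SD, n = 3), and 1534 and 1085 bp in the untreated libraries. This measure too was added after the values had been seen and has no test. Of the 10243 genes, 1.54% had a nearer outermost downstream edge in every OA library, and FASN was 1 of 8 here. The reverse, a farther downstream edge in every OA library, was found for 7.5%. FASN fold was 6.28, 9.57 and 5.48 in vehicle against 7.04, 9.09 and 8.29 in OA, which gave the largest centred fold difference of the 8 genes, 0.39 on the log2 scale (SE 0.21, limma adjusted p = 0.712). Without vehicle replicate 3 it was 0.16 (SE 0.17, limma adjusted p = 0.840), and without vehicle replicate 2 it was 0.59 (SE 0.21, limma adjusted p = 0.561).

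SCD encodes the desaturase that makes oleate from stearate. Its region, chr10:100346536-100348921 on the plus strand, was covered over 2289, 1951 and 1015 bp in vehicle and 1740, 1751 and 1797 bp in OA. The OA values again lay between vehicle replicate 3 and the other 2 vehicle libraries. The centred log2 difference was −0.07 (SE 0.18, limma adjusted p = 0.912) for length. For fold, which was 5.00, 6.99 and 7.31 in vehicle against 4.54, 6.77 and 8.53 in OA, it was 0.18 (SE 0.19, limma adjusted p = 0.846).

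**Figure D3:**
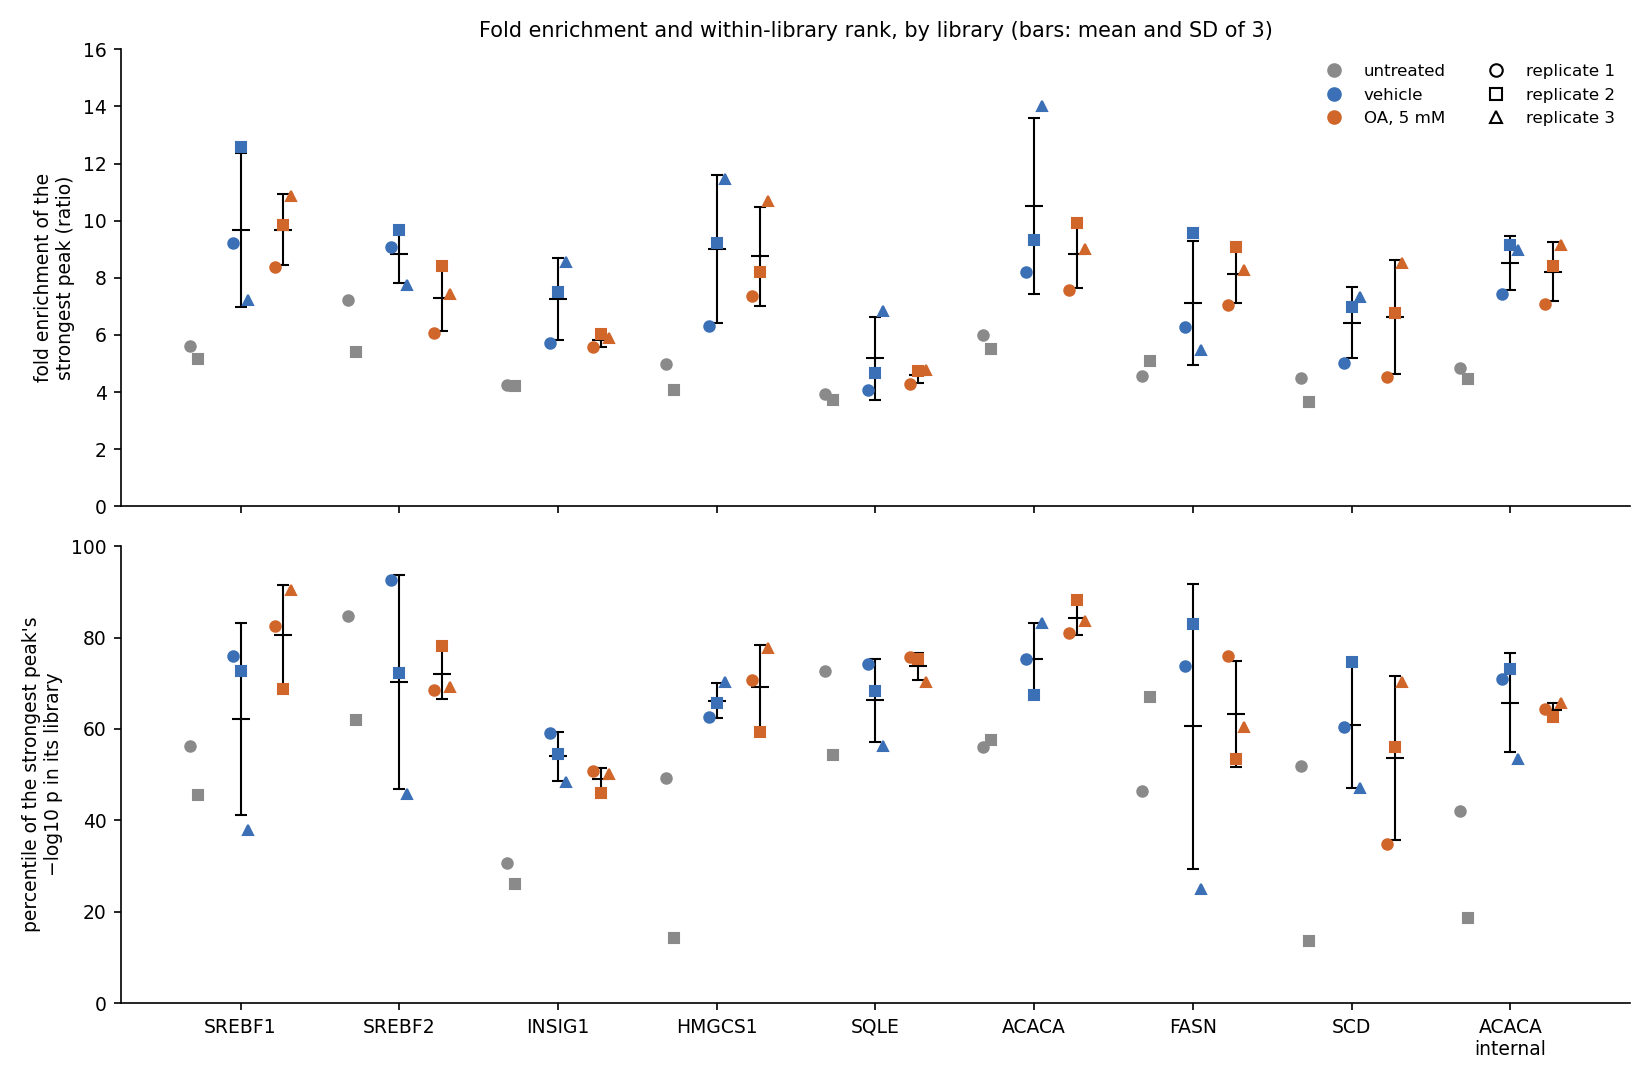
Fold enrichment of the strongest peak (ratio, upper panel) and the percentile of its −log10 p among the peaks of its own library (lower panel), with 1 point per library and bars for mean and SD of 3. Vehicle and OA overlap in every region in both measures, and the untreated fold lies below all vehicle and OA folds in 8 of the 9 regions.

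No region of the 8 genes passed the limma threshold of an adjusted p of 0.05 in length or in fold. Over all regions, 0 of 11071 regions (0%) passed for length, and 1 (0.00903%) passed for fold, higher in OA, while 8.13% and 7.37% had an unadjusted p under 0.05. Among the 8 main regions, length was higher in OA in 2 and lower in 6, against 45.7% higher and 54.3% lower of all regions. The median log2 difference was −0.06 against −0.03 over all regions. Fold was higher in 5 and lower in 3, against 47.6% and 52.4%, with a median of 0.09 against −0.01. Without centring, length changed sign to higher in OA for SREBF2, HMGCS1, ACACA and SCD, and fold to lower for HMGCS1 and SQLE. The SREBF1 main region was the only member region with an unadjusted p under 0.05 in limma (length). The intervals show how little the 3 replicates fix: for SQLE length the 95% interval ran from −0.30 to 0.50 on the log2 scale, and for FASN length from −0.85 to 0.36. In no member region did the 2 groups separate in bases covered, fold or percentile of −log10 p, against 7.22%, 11.3% and 16.5% of all regions. In rank by length the SREBF1 main region alone separated, against 15.7% of all regions in either direction.

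**Figure D4:**
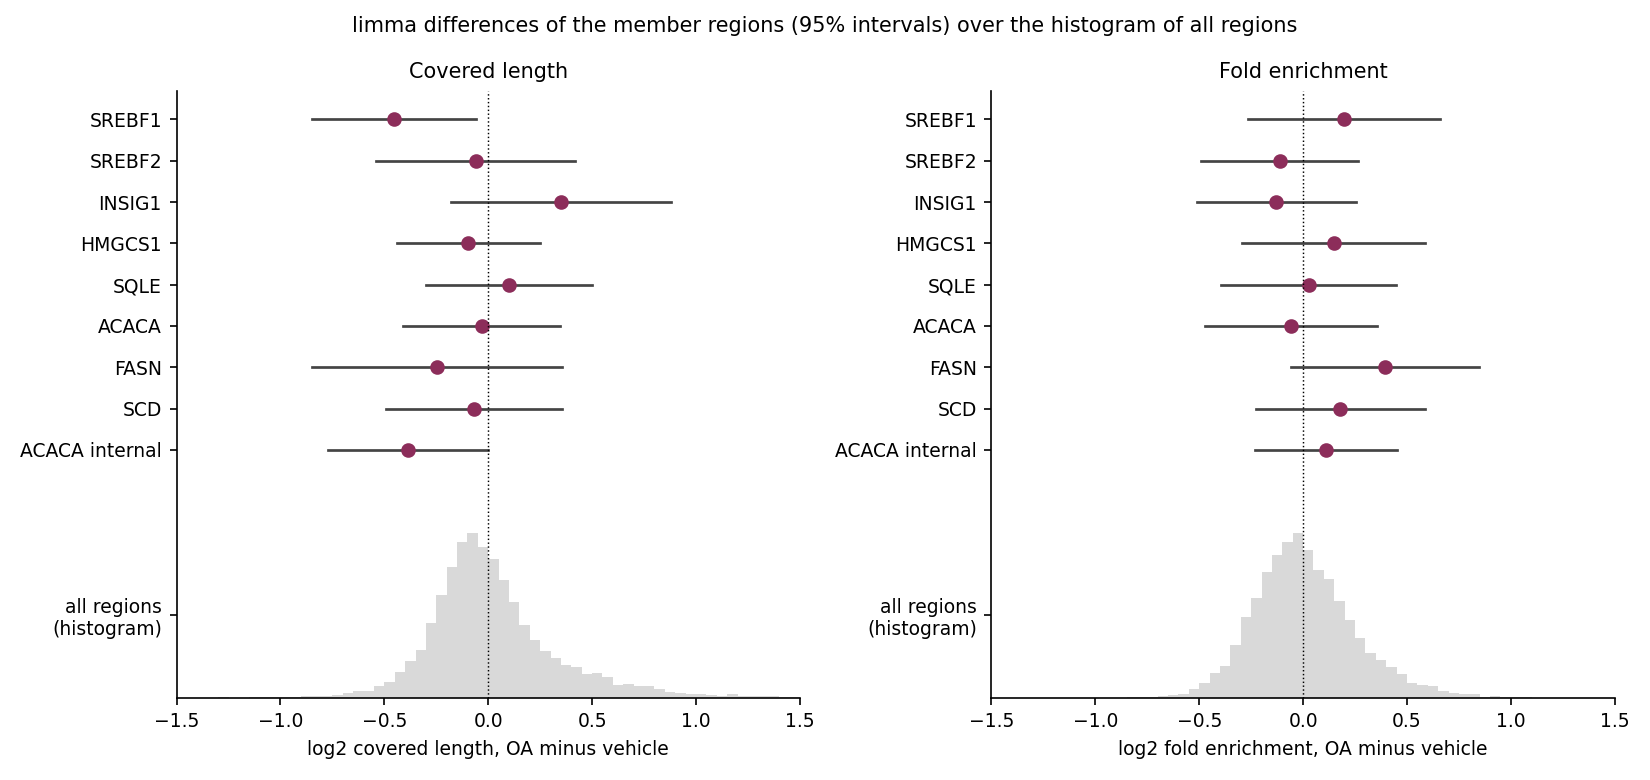
Centred log2 differences of OA minus vehicle in covered length (left) and fold enrichment (right) for the 9 member regions called in all 6 libraries, with 95% intervals from limma, above a histogram of the differences of all 11071 regions scaled to its highest bin. All intervals include 0 except that of SREBF1 length.

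H3K27me3 was called at none of the 8 genes in any library. No broad peak lay within 3 kb of a start, and none within any of the 8 gene bodies. This was common: 74.7% of all protein-coding genes had no H3K27me3 call near a start in any of the 6 libraries, and 90.9% of those with a main H3K4me3 region in all 6. Counting gene bodies as well, the share was 85.4% of the latter. The libraries differed in calls, with 9091 broad peaks in OA replicate 3 and 18801 to 47648 in the other 5, and the depth behind them is unknown. The mark may be present below the threshold at a gene with no call.

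The nearest H3K27me3 peak was 10.6 kb from a start of SREBF2, in vehicle replicate 2, and 12.1 kb from one of INSIG1, in OA replicate 2. From the canonical starts, the distances in these libraries were 77.6 kb for SREBF2 and 12.2 kb for INSIG1. For SCD a peak 15.8 to 16.1 kb away was called in all 6 libraries, and for FASN one 116 to 118 kb away. ACACA was the only gene whose distances from the nearest of all its annotated starts separated the groups. By that measure its nearest peak lay 23.9, 23.9 and 23.4 kb away in vehicle and 142, 239 and 307 kb away in OA, a pattern of farther peaks in OA that 6.17% of genes showed. From the canonical start alone the distances overlapped, at 239 kb in each vehicle library and 239, 239 and 307 kb in OA, so the separation rests on starts inside the gene. The measure was added after the values had been seen. The 3 OA libraries had 32363, 25540 and 9091 broad peaks, and vehicle replicate 1 had 18801, and the part of these numbers in the distance was not tested.

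**Figure D5:**
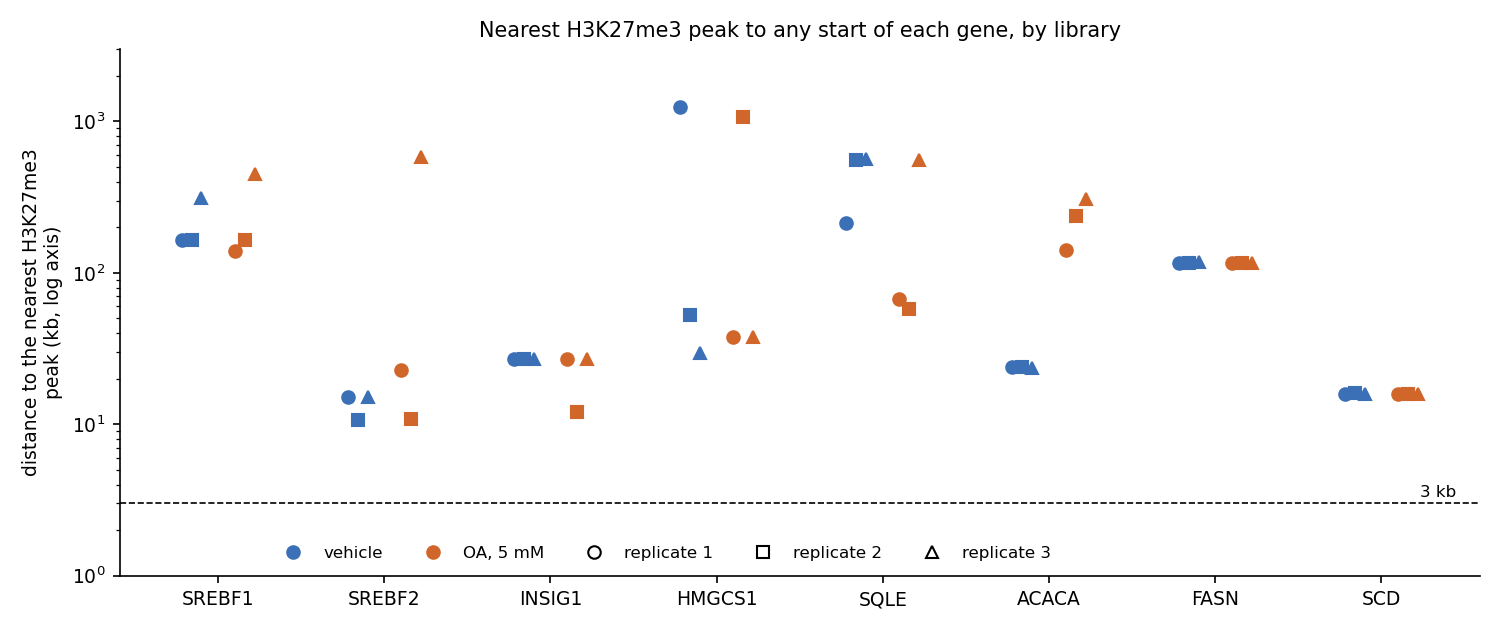
Distance from any start of each gene to the nearest H3K27me3 peak (kb, log axis), with 1 point per library. All points lie above the dashed line at 3 kb, and only ACACA has all OA points above all vehicle points.

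Other genes of the pathways were counted from lists of known enzymes and regulators. Over all protein-coding genes, 54.9% had a main H3K4me3 region in all 6 libraries and 74.7% had no H3K27me3 call near a start. Of 21 sterol synthesis genes, which include HMGCS1 and SQLE, 20 had a main H3K4me3 region in all 6 libraries, 0 passed limma in either measure and 0 had an H3K27me3 call. The exception was TM7SF2, a sterol reductase, with no call in vehicle replicate 3. Of 21 fatty acid synthesis genes, which include ACACA, FASN and SCD, 16 were called in all 6 libraries and 0 passed limma. ELOVL2 and ELOVL3, elongases of very long chains, and THRSP, a regulator of lipogenesis, had no H3K4me3 region, and ACACB and FADS2 again lacked only vehicle replicate 3. The ACACB region lay at another annotated start, 38054 bp from the canonical one. No region called in at least 2 libraries lay at that canonical start. An H3K27me3 call stood at 1 of these 21 genes, ELOVL2, in 1 vehicle library. The median log2 differences of these lists were −0.05 and −0.06 for length and 0.03 and 0.12 for fold.

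Of 15 genes of SREBP and LXR control, which include SREBF1, SREBF2 and INSIG1, 14 were called in all 6 libraries and 0 passed limma. The exception was MLXIPL, which encodes ChREBP, the glucose-responsive activator of lipogenic genes. Its main region, chr7:73624028-73624592 on the minus strand, contained the canonical start and was called over 217, 422 and 542 bp in OA and in no vehicle, untreated or IgG library. The peaks were weak, with a fold of 4.43, 7.43 and 7.83 and −log10 p at the 5.61, 22.1 and 30.1 percentiles of their libraries. Of all H3K4me3 regions, 1.84% were called in 3 OA libraries and no vehicle library. The reverse, 3 vehicle libraries and no OA library, was found for 0.0801%. With only peaks of a q-value of at most 1e-05, or with equal numbers of peaks per library, 2 OA libraries kept the call. The same held with peaks required to cover at least 50% of the region. H3K27me3 was called at 3 of these 15 genes: MLXIPL in 1 vehicle and 1 OA library, and NR1H2, which encodes LXRβ, and UBXN8 in 1 OA library each. As given above, 54.9% of all protein-coding genes had a main H3K4me3 region in all 6 libraries and 74.7% had no H3K27me3 call.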

How the data were processed

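The labels put each of the 16 libraries in a group. Per the labels and the methods, the authors called H3K4me3 and IgG narrow peaks with MACS2 2.2.7.1 and H3K27me3 broad peaks with SICER2 on hg38, in each library separately. The H3K27me3 lists have the broadPeak layout of MACS2, so their caller is uncertain. The aligner is not given in the sources used here. The deposited fold is a ratio of a peak to its local background, and the deposited −log10 p-value and q-value depend on depth. None is scaled between libraries.

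Peaks of the 6 libraries of a mark sharing 1 bp were merged, regions with peaks from 2 or more libraries were kept, and each was assigned to a gene within 3 kb of a GENCODE start. Log2 covered length and log2 fold were centred on each library's median and fitted with limma 3.58.1 in R 4.3.3 (regions called in all 6, no block, Benjamini-Hochberg over all regions, threshold 0.05). limma was tested on simulated data. Tables and plots were made with numpy 2.4.6, matplotlib 3.10.9 and scipy 1.17.1 under Python 3.11.15. DiffBind, which the authors ran on reads, was not run. The pileup and background behind each narrow peak were solved from the fold and −log10 p.

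The 8 members and all lists were chosen with earlier results of these data known. Members were named with every region, and other pathway genes where their main region passed limma, was called in 1 group alone, was missing, or had an H3K27me3 call in at least 2 libraries. TM7SF2, ACACB, FADS2, ACADS, ETFB, CPT1A, NR1H2 and UBXN8, and the H3K27me3 call of ELOVL2, were named after their values were seen. The labels name biological triplicates, and replicate numbers did not pair the libraries. Alternatives were a q-value of at most 1e-05, equal numbers of peaks, 1 kb, 50% cover, removal of IgG regions, H3K27me3 peaks within 5 kb joined, a replicate block, no centring, quantile normalization, regions in at least 2 libraries, and each replicate left out.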

Additional observations from a re-analysis of the deposited data

Results flagged for a closer look

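The untreated H3K4me3 libraries entered no comparison, yet both had a peak at SREBF1 away from its main region, where neither IgG library had any. Untreated replicate 2 had a peak of 287 bp, chr17:17823110-17823396, inside the internal region that was otherwise called in vehicle replicates 1 and 2 alone. Its fold was 4.34, it reached 12 reads, and its −log10 p stood at the 8.83 percentile of that library. Untreated replicate 1 had a peak of 216 bp, chr17:17813306-17813521, near a start farther inside the gene, with a fold of 4.47 and a −log10 p at the 5.22 percentile, and no vehicle or OA library had a peak there.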

How the results depend on the processing

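The calls at the 8 starts, and the absence of H3K27me3 calls, held under every alternative run except 1: with peaks required to cover at least 50% of the region, 2 of the 8 main regions, SREBF2 and ACACA, were called in all 6 libraries, and the other member regions could not be fitted. The number of member regions called in at least 2 vehicle and no OA library was 1 (SREBF1) and ranged from 0 to 1 when 1 library was left out (0 without vehicle replicate 1 or vehicle replicate 2). The reverse count was 0 and ranged from 0 to 1, the 1 being the upstream stretch of INSIG1 once OA replicate 3 no longer joined it to the start. No member passed limma under any of the 15 alternatives (lowest adjusted p 0.276, FASN length without vehicle replicate 3). Of 256 values, 227 kept their direction. These include the 1 kb setting, which kept the main fit, and the replicate block, which leaves the differences the same in this balanced design. Their directions were fixed in advance. The replicate block gave 0 member calls for length and 0 for fold, and changed no call. Deviations of libraries with the same number correlated at 0.04, 0.16 and −0.23 for length and −0.05, 0.19 and −0.29 for fold, so the numbers were not taken as pairs. Over all regions, length gave 0 calls, or 11 without vehicle replicate 3 and 2 without vehicle replicate 1. Fold gave 1 call, or 351 with regions called in at least 2 libraries, 3 without vehicle replicate 3, 2 without centring, and 0 under 8 alternatives (the stricter q-value, equal numbers of peaks, 50% cover, and each of the other 5 libraries left out).

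Signs that changed all belong to values that passed no threshold. For INSIG1 length, the −0.095 without OA replicate 3 was measured on the part at the start alone, since the upstream stretch was then a separate region. The cause of the other changes was not tested. Without centring, which moved the median of all regions from −0.03 to 0.13 for length and from −0.01 to −0.18 for fold, length became 0.099 for SREBF2, 0.064 for HMGCS1, 0.13 for ACACA and 0.091 for SCD, and fold became −0.018 for HMGCS1, −0.14 for SQLE and −0.054 for the ACACA internal region. With 50% cover, length became 0.012 for SREBF2 and 0.041 for ACACA. With quantile normalization, length became 0.0096 for SREBF2 and 0.021 for ACACA, and fold −0.11 for SQLE. With regions called in at least 2 libraries, SQLE length became −0.067, and fold became −0.039 for HMGCS1, −0.16 for SQLE, −0.075 for the ACACA internal region and −0.0077 for SCD. With 1 library left out, FASN kept its signs, with length from −0.55 to −0.098 and fold from 0.16 to 0.59, while length ranged from −0.20 to 0.15 for SREBF2, −0.095 to 0.50 for INSIG1, −0.073 to 0.18 for SQLE, −0.15 to 0.077 for ACACA and −0.22 to 0.063 for SCD, and fold from −0.058 to 0.37 for SREBF1, −0.010 to 0.28 for HMGCS1, −0.073 to 0.18 for SQLE and −0.16 to 0.11 for ACACA.

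Peak lists limit these values: reads per library were not analysed, the recovered H3K4me3 background tracks depth only if no control library entered the calling, the depth of the H3K27me3 libraries is unknown, and a call lost in a shallow library is not a lost mark.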

Other observations

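Fatty acid oxidation is the route by which mitochondria burn octanoate. Of 14 genes of fatty acid oxidation, which include steps for long chains such as CPT1A, 14 had a main H3K4me3 region. For 12 it was called in all 6 libraries, as for 54.9% of all protein-coding genes, and 2 of the 12 share 1 region. ACADS, the short-chain acyl-CoA dehydrogenase, and ETFB, a subunit of its electron acceptor, were called in all 3 OA libraries and in vehicle replicates 1 and 2 but not 3. None of the 12 passed limma in length or in fold, with median log2 differences of −0.08 and −0.04. An H3K27me3 call stood at 1 of the 14 genes, CPT1A, which brings long-chain fatty acids into mitochondria, in 1 OA library. Of all protein-coding genes, 74.7% had no such call in any of the 6 H3K27me3 libraries.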
